A study of Mus musculus with 18 samples.

Results

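The genes described here encode the nuclear subunits of respiratory complexes II, III, IV and V, measured by RNA sequencing of the tibialis anterior, which lies at the front of the shin, in mice in which 1 femoral artery was tied off. They were chosen by name among protein-coding genes. The names are Sdha, Sdhb, Sdhc, Sdhd and Cyc1, every symbol that starts with Uqcr or Atp5, and every symbol that starts with Cox4i, Cox5, Cox6, Cox7 or Cox8. The mean normalized count over the 18 libraries had to be at least 10. The names match 48 protein-coding genes of the annotation, of which 47 have a row in the table and 45 reached the minimum, out of 12262 genes that reached it and 20922 genes in all. These 45 members are 4 genes of complex II, 9 of complex III, 15 of complex IV and 17 of complex V. Cox6b2 and Cox7b2, with means of 0.745 and 0.109, fell under the minimum, Cox8c has no row, and Cox4i2, at 10.1, lies just inside it. The minimum does not use the group a library belongs to. Atp5s, named like a subunit, is a coupling factor outside the core structure of the synthase.

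The libraries form 4 groups by genotype and limb, all from mice that carry Bmal1fx/fx, the floxed clock gene, with the doxycycline-dependent ACTA-rtTA-TRE-Cre transgene directed at skeletal muscle. Per the labels, oral doxycycline was given to induce the deletion, 1 femoral artery was ligated a week later, and muscle was taken from both hindlimbs at day 36. The ligated limb gave 4 libraries of knockouts (BKO ligated) and 4 of controls (WT ligated). The unligated limb gave 5 of knockouts (BKO intact) and 5 of controls (WT intact). The label of control mice gives Cre+/+ and that of knockouts Cre-/-, the reverse of what the names say, so BKO and WT stand here for the groups as labelled. The labels used here state no age, strain or time of day, and muscle holds other cells than the fibres the transgene is directed at.

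The respiratory chain of the inner mitochondrial membrane passes electrons from nutrients to oxygen, and the synthase uses the proton gradient this builds to make ATP. Complex II takes electrons from succinate, complex III passes them from ubiquinol to cytochrome c, complex IV hands them to oxygen, and complex V is the ATP synthase. All subunits of complex II are encoded in the nucleus, while complexes III, IV and V also hold subunits encoded in mitochondrial DNA. Several small subunits of complex IV exist as a form made mainly in striated muscle and heart and a form made in most tissues. The factors NRF1 and NRF2 (GABP, of the ETS family) are known to act on promoters of many of these nuclear genes.

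RefSeq promoters (build GRCm38.p6, 250 bases before to 50 after the start) were at hand for 32 of the 45 members and were searched on both strands. The NRF1 word was GCGCATG or its reverse complement. The ETS word was CCGGAAG or its reverse complement. Copies of the NRF1 and the ETS word can share at most 1 base, while a word and its own reverse complement can overlap by 4. A gene with several starts counted once, if any of its promoters held the word, and a match is a description, not a site. The NRF1 word was in 8 of the 32 member promoters (25.0%), against 7.98% of the 9173 tested genes with a promoter and 4.41% of all 27025 genes with a promoter. The ETS word was in 12 member promoters (37.5%), against 20.4% and 9.93%. For Atp5j, which has 2 promoters in the table, only 1 of them holds it. The 250 bases before the start are shown for 3 members, with the words in capitals, because they span what was found. Atp5l (chr9:44920743-44920992 on the minus strand) holds both words. Cox8a (chr19:7217617-7217866 on the minus strand), the form of a complex IV subunit made in most tissues, holds the ETS word only in the 50 bases after the start that are not shown. Cox8b (chr7:140900447-140900696 on the minus strand), its muscle form, holds neither.
Atp5l: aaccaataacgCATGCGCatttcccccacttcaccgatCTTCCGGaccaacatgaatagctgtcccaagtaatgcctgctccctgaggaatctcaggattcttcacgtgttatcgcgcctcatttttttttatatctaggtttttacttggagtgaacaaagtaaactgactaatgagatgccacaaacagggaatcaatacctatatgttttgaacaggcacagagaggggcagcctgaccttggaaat
Cox8a: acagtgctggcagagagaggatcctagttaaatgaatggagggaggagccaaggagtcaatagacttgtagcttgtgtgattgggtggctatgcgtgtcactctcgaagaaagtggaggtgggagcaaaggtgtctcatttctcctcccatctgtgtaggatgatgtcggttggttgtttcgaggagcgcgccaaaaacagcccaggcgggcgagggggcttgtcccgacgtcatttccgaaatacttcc
Cox8b: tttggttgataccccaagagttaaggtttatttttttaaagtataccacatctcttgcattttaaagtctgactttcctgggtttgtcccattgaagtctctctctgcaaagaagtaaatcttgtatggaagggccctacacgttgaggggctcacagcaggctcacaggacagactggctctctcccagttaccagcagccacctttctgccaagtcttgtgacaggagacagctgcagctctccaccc

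Arntl, the gene of Bmal1, went against the label in ligated muscle. Its normalized counts were 63.8 to 81.95 in BKO ligated and 12.2 to 18.3 in WT ligated libraries. The intact limb gave 42.4 to 61.1 in BKO intact and 41.3 to 68.4 in WT intact libraries. A gene-level count does not isolate the deleted exons, so each direction between genotypes given here rests on the label and not on Arntl. Nr1d2, a clock output gene that BMAL1 activates, followed the label in both limbs. It was at 446 to 604 in BKO ligated and 1514 to 1728 in WT ligated libraries. It was at 479.7 to 557 in BKO intact and 1564 to 1744 in WT intact libraries. Recovered depth was 14.1 to 25.6 M reads per library. The mitochondrial ribosomal RNA mt-Rnr2 took 40.9 to 55.5% of reads in BKO ligated, 38.1 to 45.3% in WT ligated, 33.6 to 36.1% in BKO intact and 31.9 to 34.3% in WT intact libraries, most in BKO ligated libraries 4 and 5. All 10 skeletal muscle markers looked at, such as Acta1, Ckm and Myh4, were present in every library. They had summed normalized counts of 1.09 to 1.21 M in BKO ligated, 0.958 to 1.11 M in WT ligated, 1.26 to 1.49 M in BKO intact and 1.31 to 1.56 M in WT intact libraries.

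In intact muscle the subunit genes were higher in the libraries labelled BKO than in those labelled WT, nearly as a whole. Of 45 members, 40 were called higher and none lower (nor by edgeR or DESeq2), against a background of 8.56% higher and 9.75% lower among all 12262 genes tested (18.3% in either direction). The call rule is an adjusted p under 0.05 by limma, a linear model across all genes on log2(normalized count + 1), with the adjustment over all genes tested. All 45 differences were positive, with a median of 0.43 on the log2 scale, against a median of 0.00 over all genes, and 37 members had no overlap between the groups (background 14.4%). The 40 are all 4 genes of complex II, all 9 of complex III, 13 of 15 of complex IV and 14 of 17 of complex V, with medians of 0.44, 0.42, 0.45 and 0.52. Cox4i2, Cox7a2l, Atp5g2, Atp5j and Atp5s did not pass. With any 1 library left out, 33 to 40 members were called, and with a correction for transcript length 32, all of them among the 40. That correction gave a member median of 0.31, and over all genes 8.12% were called higher and 8.60% lower. The 8 lost with the length correction were Uqcr10, Uqcrq, Cox6a1, Cox6a2, Cox7a2, Cox7b, Cox8a and Atp5e. Across tested genes the Spearman correlation of this BKO minus WT difference with length was -0.221. The part of length in the difference was not tested.

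With ligation fewer members passed as higher in libraries labelled BKO than in those labelled WT. In BKO-labelled muscle 7 members were called higher and 16 lower (background 22.1% higher and 25.1% lower), with a median of -0.14. In WT-labelled muscle 23 were called higher and 5 lower (background 18.7% and 21.1%), with a median of 0.28. By complex, 0 higher and 1 lower of complex II, 3 and 2 of complex III, 1 and 7 of complex IV and 3 and 6 of complex V passed in BKO-labelled muscle. In the same order of complexes 2 higher and 0 lower, 6 and 1, 6 and 2, and 9 and 2 passed in WT-labelled muscle. Called higher in both labels were Cyc1, Uqcrfs1, Uqcrq, Cox7b, Atp5e and Atp5k, and called lower in both were Uqcrb, Cox6a2, Cox6c, Atp5h and Atp5s. A further 17 members passed as higher in WT-labelled muscle alone and 11 as lower in BKO-labelled muscle alone. Atp5j passed as higher in BKO-labelled muscle and not in WT-labelled muscle, and 5 passed in neither. With the length correction 13 were called higher and 13 lower in BKO-labelled muscle, with a median of 0.01, so that neither the excess of lower calls nor the sign of the median held there. In WT-labelled muscle it gave 26 higher and 5 lower, with a median of 0.28. Another scaling, with each library centred on its median gene, gave 4 higher and 17 lower in BKO-labelled muscle, and leaving out BKO intact library 1, BKO intact library 5 or BKO ligated library 6 also gave 4 higher, while leaving out BKO ligated library 5 gave 3.

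The difference between these ligation effects was itself tested. The change with ligation in BKO-labelled minus that in WT-labelled muscle was below 0 for 43 of 45 members, with a median of -0.46 (all genes -0.01). By limma 24 were called lower and none higher, against backgrounds of 2.97% and 3.04%, and neither edgeR nor DESeq2 called any higher. These are 2 of 4 genes of complex II, 4 of 9 of complex III, 9 of 15 of complex IV and 9 of 17 of complex V. The count depends on single libraries: 14 members were called without BKO ligated library 4, WT ligated library 2 or WT ligated library 5. It was 5 without both BKO ligated libraries that held most mt-Rnr2 (Sdhb, Uqcr11, Atp5g1, Atp5g3 and Atp5mpl), so the calls of Sdhd, Cox6a1, Cox8a and Atp5l described here were lost there. It was 8 with the length correction (Sdhb, Sdhd, Cox6a1, Cox8a, Atp5g1, Atp5g3, Atp5l and Atp5mpl). Over all genes the share called lower was 1.81%, 1.53% and 1.62% without those single libraries, in that order. It was 0.807% without both mt-Rnr2-rich libraries and 1.94% with the length correction, where the member medians were -0.40 and -0.32. Members are short, with a median transcript of 742 bases against 2926 over the tested genes. Across tested genes the Spearman correlation of this difference with length was 0.287, a description over 12188 genes that are not independent. The comparisons share libraries, so the high level of BKO intact and the low level of WT intact enter several of them, and the part of length or of mt-Rnr2 in the difference was not tested.

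**Figure D1:**
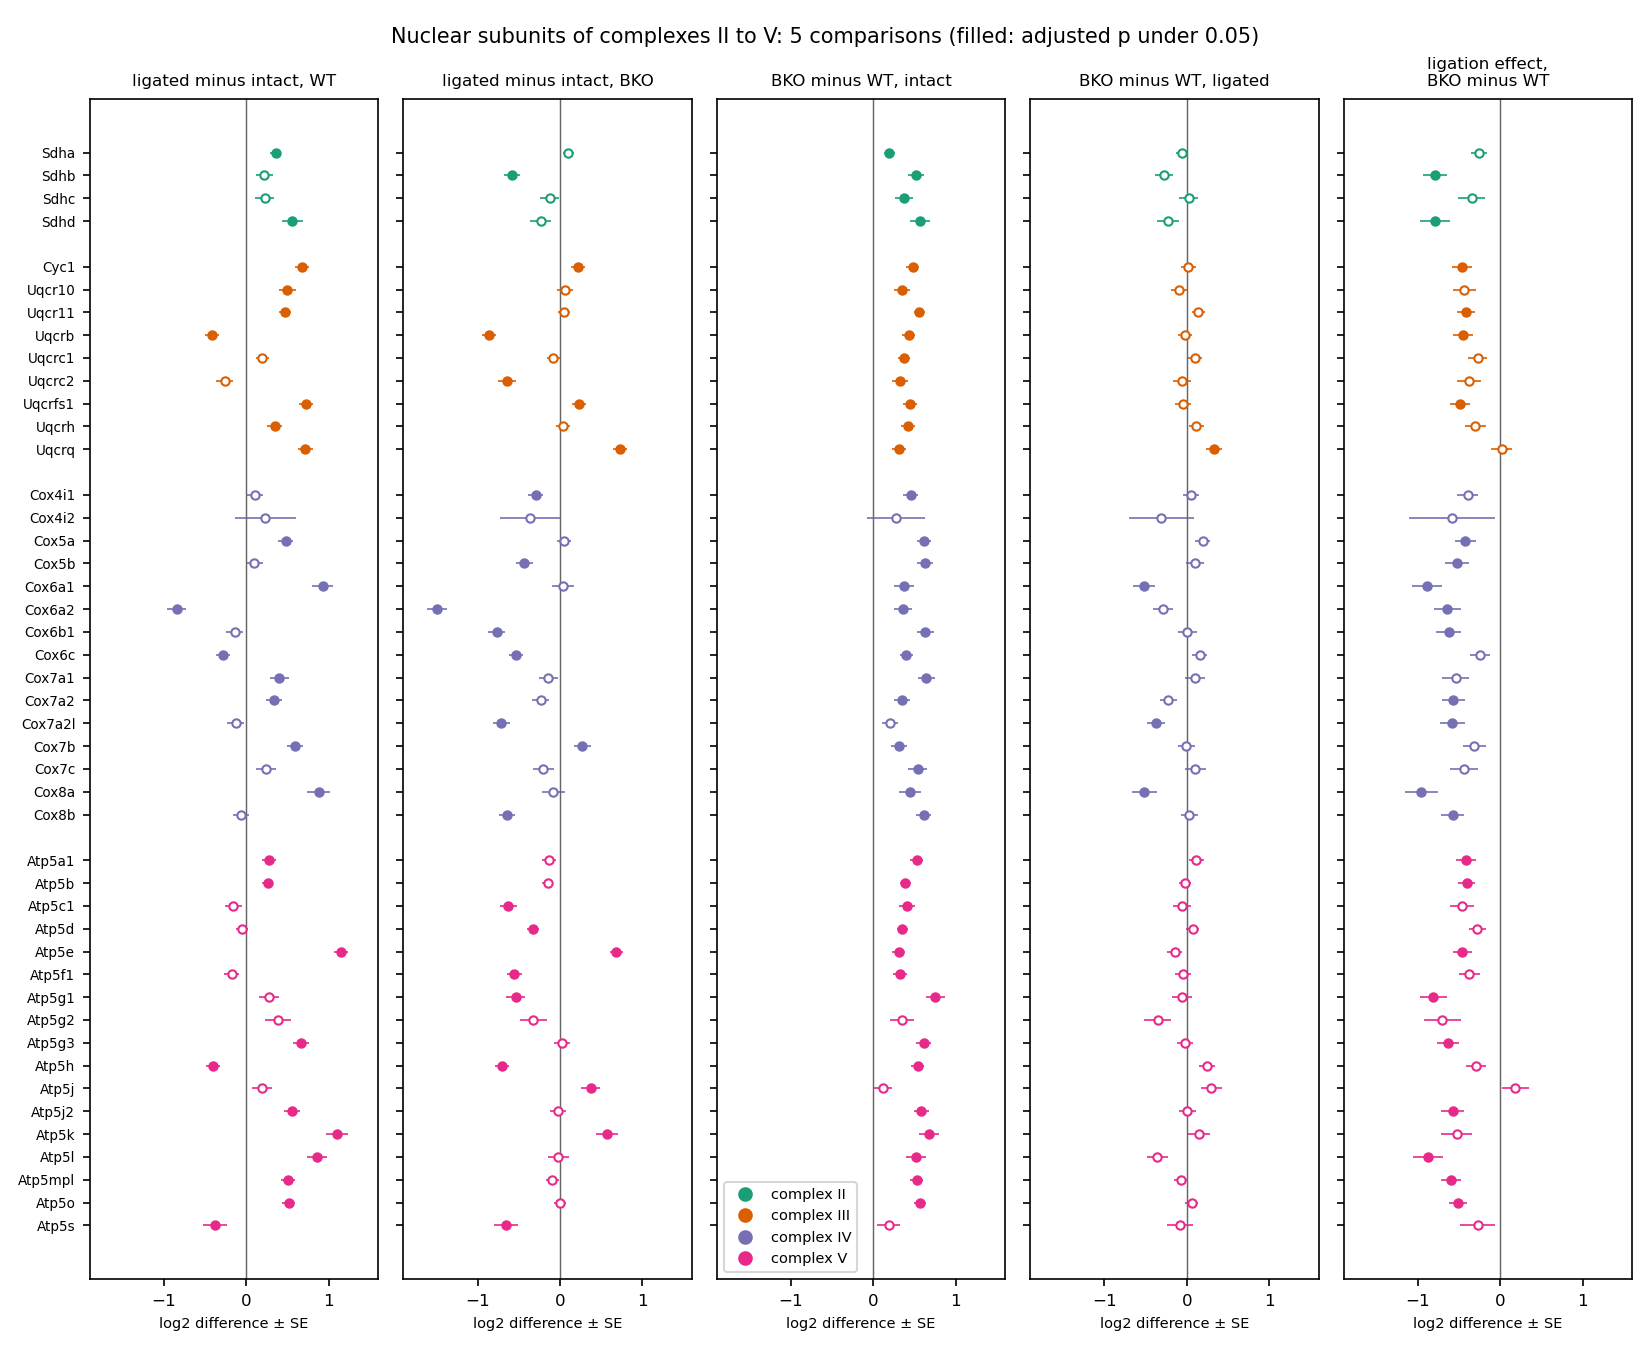
Log2 difference ± SE by limma (horizontal axis) of each of the 45 members (rows, by complex) in 5 comparisons; filled points have an adjusted p under 0.05. In intact muscle every point lies right of 0 and 40 are filled, and in the panel of the difference between ligation effects 24 filled points lie left of 0.

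In ligated muscle 4 members differed between libraries labelled BKO and WT past the threshold. Only Uqcrq was called higher, and Cox6a1, Cox8a and Cox7a2l were called lower (background 4.16% higher and 4.68% lower), with a median over all 45 of -0.02. The call of Cox8a was lost without BKO ligated libraries 4 or 5 or WT ligated libraries 2, 5 or 6, and that of Cox7a2l without BKO ligated libraries 2, 4 or 5 or WT ligated libraries 2, 5 or 6. That of Cox6a1 was lost without BKO ligated library 4 or WT ligated library 5, and that of Uqcrq without BKO ligated libraries 2 or 5 or WT ligated library 2. All 4 calls were lost without both BKO ligated libraries that held most mt-Rnr2. A p that misses the threshold does not show equal levels. The 95% interval of the difference ran from -0.18 to 0.14 for Atp5b, a precise one, and from -1.12 to 0.50 for Cox4i2, the gene with fewest reads.

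Group means placed WT intact lowest for 31 of 45 members and BKO intact highest for 27, with BKO ligated and WT ligated highest for 9 each. The median member of each library, set against the WT intact mean on the log2 scale, was 0.06 to 0.45 in BKO ligated, 0.10 to 0.38 in WT ligated, 0.36 to 0.53 in BKO intact and -0.20 to 0.16 in WT intact libraries. BKO intact lay above every WT intact library, while the low ends of both ligated groups, library 4 in each, overlapped WT intact. As a share of all recovered reads the members together held 0.538% ± 0.127 in BKO ligated and 0.668% ± 0.0961 in WT ligated libraries (SD, n = 4 each). They held 0.724% ± 0.0222 in BKO intact and 0.518% ± 0.0556 in WT intact libraries (SD, n = 5 each). The reads counted include mt-Rnr2, which took 40.9 to 55.5% of them in BKO ligated and 38.1 to 45.3% in WT ligated libraries. In the intact limb it took 33.6 to 36.1% in BKO intact and 31.9 to 34.3% in WT intact libraries. These shares of the members therefore depend on mt-Rnr2 as well as on the members.

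**Figure D2:**
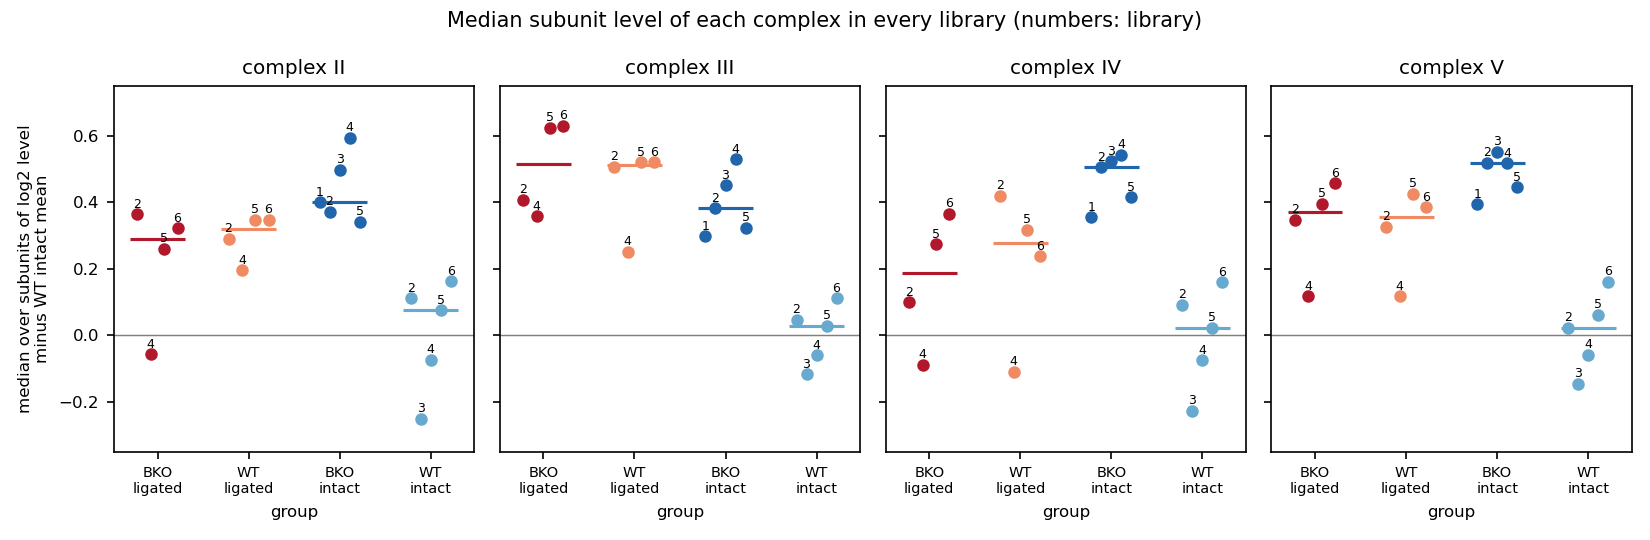
Median over the subunits of each complex of the log2 level minus the WT intact mean (vertical axis), one point per library with its number, by group; lines are group medians. For complex IV, BKO intact libraries lie at 0.35 to 0.54 and WT intact libraries at -0.23 to 0.16, and library 4 is lowest in BKO ligated and in WT ligated.

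Markers of other cell types changed with ligation in the same libraries. Over all genes tested, ligation gave 22.1% higher and 25.1% lower in BKO-labelled muscle, and 18.7% and 21.1% in WT-labelled muscle. All 7 tested adipocyte markers, such as Adipoq and Plin1, were called higher after ligation in both labels. Their summed normalized count was 2256 to 5324 in BKO ligated, 4614 to 7008 in WT ligated, 718 to 822 in BKO intact and 707 to 937 in WT intact libraries. Macrophage markers were called higher for 0 of 8 in BKO-labelled muscle and 5 of 8 in WT-labelled muscle, and their sums were 340.1 to 546 in BKO ligated and 595 to 766 in WT ligated libraries. The intact limb gave 241 to 466 in BKO intact and 356 to 515 in WT intact libraries. Endothelial markers were called higher for 5 of 6 in BKO-labelled muscle and 4 of 6 in WT-labelled muscle. Their sums were 3362 to 4485 in BKO ligated, 2963 to 3913 in WT ligated, 2042 to 2599 in BKO intact and 1966 to 2444 in WT intact libraries. Smooth muscle and pericyte markers were called higher for 4 of 6 in each, with 1 lower in BKO-labelled muscle, and fibro-adipogenic markers for 3 of 6 in BKO-labelled muscle and 4 of 6 in WT-labelled muscle. Blood cell markers were called lower for 2 of 5 in BKO-labelled muscle and 0 of 5 in WT-labelled muscle, and 1 of 3 Schwann cell markers was lower in BKO-labelled muscle and 1 higher in WT-labelled muscle. Skeletal muscle markers fell for 6 of 10 in each label, with 1 higher in BKO-labelled muscle. Only Dio2 of 4 brown or beige fat markers reached the minimum, and it was called higher in both labels. Fewer cells of a type and less RNA per cell cannot be told apart in whole muscle, and the part of these cell types in the subunit differences was not tested. Between intact muscle labelled BKO and WT, where the subunits were higher, 0 macrophage, 0 endothelial and 0 blood cell markers passed by limma. The 5 blood cell markers were all above 0 in that comparison, at 0.22 to 0.60 on the log2 scale (median 0.42). Their sums were 1978 to 3621 in BKO intact and 1626 to 2715 in WT intact libraries. There 1 of 7 adipocyte, 3 of 6 smooth muscle and pericyte and 1 of 6 fibro-adipogenic markers were lower, 1 of 3 Schwann cell markers was higher, and of the skeletal muscle markers 1 was higher and 1 lower. In ligated muscle, where few subunits passed, 1 of 7 adipocyte, 2 of 8 macrophage and 2 of 6 fibro-adipogenic markers were lower in muscle labelled BKO than in WT-labelled muscle. For the difference between ligation effects the 5 blood cell markers ran from -0.76 to -0.34 (median -0.46), none passing. For that difference 1 of 8 macrophage, 1 of 6 fibro-adipogenic and 1 of 3 Schwann cell markers were called lower.

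Complex II, succinate dehydrogenase, divided by subunit after ligation. Sdhb, its iron-sulfur protein (ENSMUSG00000009863, chromosome 4, 140961203 to 140979193 on the plus strand), had normalized counts of 1697, 1582, 2096 and 2213 in BKO ligated and 2400.3, 2084, 2333 and 2279 in WT ligated libraries. In the other limb the values were 2529, 2715, 2834, 3155 and 2858 in BKO intact and 2147, 1611, 1848, 2032 and 2212 in WT intact libraries. All BKO ligated values lay below all BKO intact values, while WT ligated overlapped WT intact. On the log2 scale ligation changed Sdhb by -0.58 ± 0.10 (SE) in BKO-labelled muscle (limma adjusted p = 0.000111) and by 0.21 ± 0.10 in WT-labelled muscle (adjusted p = 0.105). The difference was -0.80 ± 0.15 (adjusted p = 0.0045) and passed whichever 1 library was left out and under the length correction. In intact muscle Sdhb was 1.44-fold higher under the BKO label, at 2818 ± 229 against 1970.0 ± 244 under the WT label (SD, n = 5 each, limma adjusted p = 0.00064).

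Sdhd, a membrane anchor that helps to bind ubiquinone, had 1417, 982, 1267 and 1609 normalized counts in BKO ligated and 1624, 1269, 1600.1 and 1615 in WT ligated libraries. Intact muscle had 1389.6, 1522, 1611, 1681 and 1452 in BKO intact and 1023, 802, 1011, 1133 and 1240.4 in WT intact libraries. WT ligated lay wholly above WT intact, and BKO ligated overlapped BKO intact. Its ligation difference was -0.23 ± 0.13 in BKO-labelled muscle, which did not pass (adjusted p = 0.141), and 0.56 ± 0.13 in WT-labelled muscle (limma adjusted p = 0.00164). The difference between them was -0.79 ± 0.18 (adjusted p = 0.0148). Sdha, the flavoprotein that oxidises succinate, was 7052 ± 665 in BKO ligated and 7317 ± 326 in WT ligated libraries (SD, n = 4 each). Without ligation the values were 6552 ± 240.1 in BKO intact and 5727 ± 376 in WT intact libraries (SD, n = 5 each). Ligation gave 0.10 in BKO-labelled muscle (adjusted p = 0.233) and a rise of 0.35 ± 0.07 in WT-labelled muscle (adjusted p = 0.000333), and its difference of -0.25 did not pass (adjusted p = 0.125). The other anchor, Sdhc, passed only between intact muscle labelled BKO and WT (0.37 ± 0.11, adjusted p = 0.0207, groups overlapping). There the call of Sdha was lost without BKO intact libraries 2, 3, 4 or 5 or WT intact libraries 3, 4 or 6, with an adjusted p up to 0.109. That of Sdhc was lost without BKO intact libraries 3 or 4 or WT intact libraries 3 or 4, with an adjusted p up to 0.0677.

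Complex III divided by subunit, with Uqcrq, Uqcrfs1 and Cyc1 called higher and Uqcrb lower with ligation in both labels. Uqcrq, a small subunit of its membrane part, had 1049, 1001, 1183 and 1025 normalized counts in BKO ligated and 729.9, 850.3, 889.7 and 921 in WT ligated libraries. Their intact counterparts had 584, 623, 619, 782 and 605 in BKO intact and 529, 548, 485, 491 and 517 in WT intact libraries. The ligated libraries lay above the intact ones of the same label without overlap, and BKO ligated lay wholly above WT ligated. Ligation raised it by 0.73 ± 0.09 in BKO-labelled muscle (limma adjusted p = 1.55e-06) and by 0.72 ± 0.09 in WT-labelled muscle (adjusted p = 2.35e-06). The difference of 0.02 (95% interval -0.25 to 0.28) did not pass. Its rise in BKO-labelled over WT-labelled ligated muscle, 0.33 ± 0.09 (adjusted p = 0.0301), was lost without BKO ligated library 2, BKO ligated library 5 or WT ligated library 2.

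Uqcrb, a subunit near the ubiquinone site (ENSMUSG00000021520, chromosome 13, 66900617 to 66905378 on the minus strand), moved the other way, with 1556, 1422, 1740.4 and 1812 in BKO ligated and 1593, 1493, 1847 and 1689.8 in WT ligated libraries. On the intact side the values were 2879.7, 2999, 3011, 3176 and 2754 in BKO intact and 2274, 1953, 2185, 2132 and 2498 in WT intact libraries. Both ligated groups lay below the intact group of their label without overlap. Uqcrb fell by 0.86 on the log2 scale in BKO-labelled muscle (limma adjusted p = 9.66e-08) and decreased by 0.41 in WT-labelled muscle (adjusted p = 0.000517). In intact muscle it was higher in muscle labelled BKO by 0.43 ± 0.08 (adjusted p = 0.000605). Uqcrc2, a core protein on the matrix side, changed by -0.64 ± 0.11 in BKO-labelled muscle (adjusted p = 4.65e-05) and by -0.26 in WT-labelled muscle, which did not pass (adjusted p = 0.0524). The length correction called it lower in WT-labelled muscle (-0.26, limma adjusted p = 0.0383). Its difference between labels, -0.38 ± 0.15, did not pass (limma adjusted p = 0.13). The other core protein, Uqcrc1, passed in neither label (-0.08 in BKO-labelled muscle and 0.19 in WT), while the length correction called it higher in WT-labelled muscle (0.20, limma adjusted p = 0.0378).

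The redox subunits encoded in the nucleus, Uqcrfs1 and Cyc1, were called higher with ligation in both labels. Uqcrfs1, the Rieske iron-sulfur protein, had 2589, 2058, 2653 and 2662 in BKO ligated and 2584, 2205, 2708 and 2773 in WT ligated libraries. The intact libraries had 1960.4, 2099.5, 2265, 2228 and 1994 in BKO intact and 1661, 1364, 1483, 1619 and 1626 in WT intact libraries. BKO ligated overlapped BKO intact through library 4, and WT ligated did not overlap WT intact. The ligation difference was 0.23 ± 0.09 in BKO-labelled muscle (limma adjusted p = 0.035) and 0.73 ± 0.09 in WT-labelled muscle (adjusted p = 1.9e-06). Cyc1, cytochrome c1, averaged 1903 ± 186 in BKO ligated and 1878 ± 189 in WT ligated libraries (SD, n = 4 each). In the other limb the values were 1630.4 ± 108 in BKO intact and 1171 ± 104 in WT intact libraries (SD, n = 5 each). Its differences were 0.22 ± 0.09 in BKO-labelled muscle and 0.68 ± 0.09 in WT-labelled muscle (adjusted p = 0.0411 and 3.02e-06). The call of Uqcrfs1 in BKO-labelled muscle was lost without BKO ligated libraries 2, 5 or 6 or BKO intact libraries 1, 2 or 5, with an adjusted p up to 0.102. That of Cyc1 was lost without BKO ligated libraries 2, 5 or 6 or BKO intact libraries 1, 3 or 5, with an adjusted p up to 0.113. In the small subunits Uqcr10, Uqcr11 and Uqcrh ligation gave 0.06, 0.05 and 0.04 in BKO-labelled muscle, none passing, and 0.50, 0.47 and 0.34 in WT-labelled muscle, all passing. Under the length correction each of them was called higher in BKO-labelled muscle, at 0.24, 0.24 and 0.27 (limma adjusted p = 0.028, 0.008 and 0.00788). The difference between labels passed for Uqcr11 (-0.42 ± 0.11, adjusted p = 0.0231), Uqcrfs1 (-0.49), Cyc1 (-0.46) and Uqcrb (-0.45), and each of these 4 calls was lost without 3 to 8 single libraries, among them BKO ligated library 4 and WT ligated library 5. None of these 4 passed with the length correction (limma adjusted p = 0.219, 0.0817, 0.106 and 0.198, in that order). For Uqcr10 and Uqcrh the difference did not pass (limma adjusted p = 0.066 and 0.156).

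Complex IV, cytochrome c oxidase, held the largest fall with ligation among the 45 members in either label. Cox6a2, the form of striated muscle and heart (ENSMUSG00000030785, chromosome 7, 128205435 to 128206387 on the minus strand), had 2920.3, 2114, 2365 and 3125 normalized counts in BKO ligated and 3411, 2871, 3502 and 2962 in WT ligated libraries. Intact muscle had 7301, 7489, 7741, 7637 and 6462 in BKO intact and 7062, 4754, 5325, 5318 and 6381 in WT intact libraries. Ligated and intact libraries did not overlap in either label. It fell by 1.49 on the log2 scale in BKO-labelled muscle, 2.81-fold (limma adjusted p = 6.58e-09), and decreased by 0.85 in WT-labelled muscle, 1.80-fold (adjusted p = 8.73e-06). The difference between labels, -0.65 ± 0.17 (adjusted p = 0.0252), was lost without BKO ligated library 4 or 5 or WT ligated library 2 or 5. The rise in BKO-labelled over WT-labelled intact muscle, 0.36 ± 0.11 (adjusted p = 0.0279, groups overlapping), was lost without BKO intact libraries 2, 3 or 4 or WT intact libraries 3, 4 or 5.

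Cox6a1, the form of most tissues (ENSMUSG00000041697, chromosome 5, 115345642 to 115348981 on the minus strand), had 139, 95.7, 116 and 128 in BKO ligated and 168, 178, 180.2 and 157 in WT ligated libraries. Without ligation the values were 104, 118, 148, 111 and 103 in BKO intact and 86.5, 74.6, 96.6, 97.3 and 93.3 in WT intact libraries. WT ligated stood above every library of the other groups. Ligation changed Cox6a1 by 0.04 ± 0.13 in BKO-labelled muscle (limma adjusted p = 0.832) and by 0.93 ± 0.13 in WT-labelled muscle (adjusted p = 9.09e-06). The difference was -0.89 ± 0.18 (adjusted p = 0.00807) and passed whichever 1 library was left out. In ligated muscle it was lower in muscle labelled BKO than in WT-labelled muscle (log2 difference -0.52 ± 0.14, adjusted p = 0.018), a call lost without BKO ligated library 4 or WT ligated library 5. Its call in intact muscle, 0.37 ± 0.12 for BKO over WT (adjusted p = 0.0387), was lost without BKO intact libraries 2, 3 or 4 or WT intact libraries 2 or 3.

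Cox8 also has a form of most tissues and a form of muscle. Cox8a, made in most tissues (ENSMUSG00000035885, chromosome 19, 7215153 to 7217616 on the minus strand), had 168, 134, 154 and 164 in BKO ligated and 239.8, 195, 233 and 218 in WT ligated libraries. Their intact counterparts had 162, 185, 172, 169 and 132 in BKO intact and 138, 87.6, 107, 121 and 155 in WT intact libraries. Again WT ligated lay above all libraries of the other groups. Its ligation difference was -0.08 ± 0.14 in BKO-labelled muscle (limma adjusted p = 0.669) and 0.88 ± 0.14 in WT-labelled muscle (adjusted p = 4.48e-05). The difference between them, -0.96 ± 0.20 (adjusted p = 0.00863), was the most negative of the 45. Cox8b, the muscle and heart form in the mouse (ENSMUSG00000025488, chromosome 7, 140898945 to 140900446 on the minus strand), had 1847, 1426, 1791 and 1849 in BKO ligated and 1826, 1383, 1884 and 1677 in WT ligated libraries. On the intact side the values were 2704, 2822, 2898, 2505 and 2523 in BKO intact and 1878, 1592, 1642, 1794 and 1908 in WT intact libraries. Here BKO intact stood apart, above every other library. Cox8b changed by -0.64 ± 0.10 with ligation in BKO-labelled muscle (adjusted p = 1.57e-05) and by -0.06 ± 0.10 in WT-labelled muscle (adjusted p = 0.619). It was higher in intact muscle labelled BKO than in that labelled WT by 0.61 ± 0.09 (adjusted p = 5.52e-05). The promoters of both forms are printed above.

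**Figure D3:**
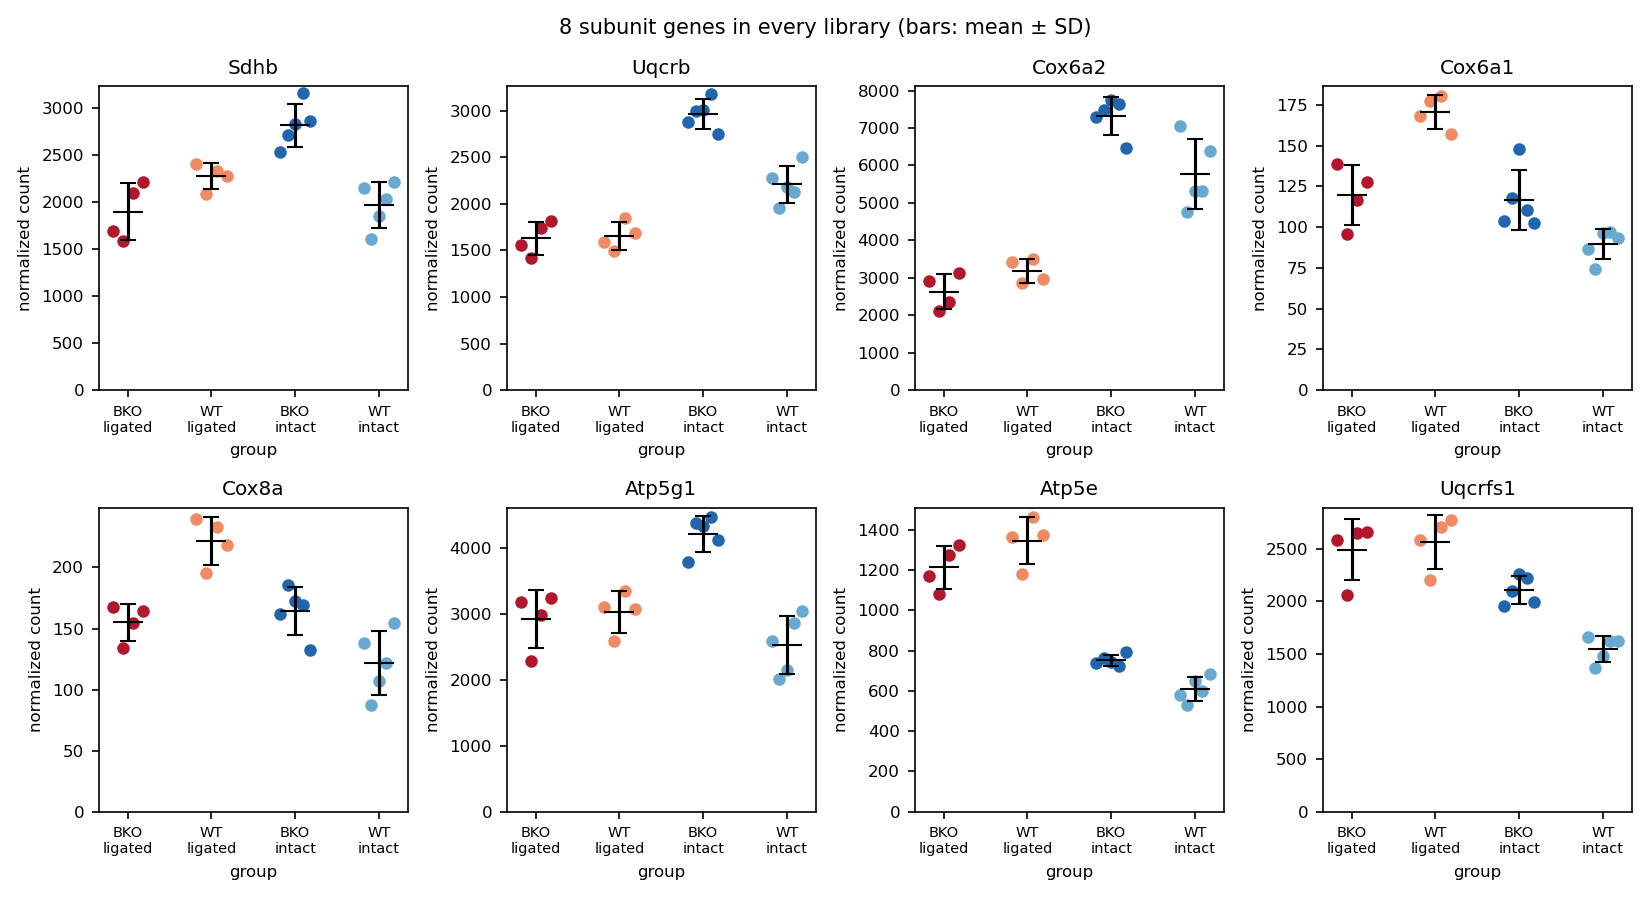
Normalized count (vertical axis from 0) of 8 subunit genes in each library, by group, with the mean and SD as bars. Cox6a2 is lower in both ligated groups than in both intact groups, Cox6a1 and Cox8a are highest in WT ligated, and Atp5e is higher in both ligated groups.

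Cox7a1, the muscle and heart form of another small subunit, averaged 1614 ± 219 in BKO ligated and 1498 ± 162 in WT ligated libraries (SD, n = 4 each). The intact libraries had 1773 ± 146 in BKO intact and 1143 ± 186 in WT intact libraries (SD, n = 5 each). Ligation gave -0.14 ± 0.11 in BKO-labelled muscle, which did not pass, and 0.40 ± 0.11 in WT-labelled muscle (limma adjusted p = 0.00832). For Cox7a1 the difference between labels, -0.54 ± 0.16, did not pass (limma adjusted p = 0.051). Its counterpart of most tissues, Cox7a2, gave -0.23 ± 0.10 in BKO-labelled muscle (adjusted p = 0.0577) and 0.34 ± 0.10 in WT-labelled muscle (adjusted p = 0.00981). It passed for the difference (-0.57 ± 0.14, adjusted p = 0.02) unless WT ligated library 2 was left out. Cox7a2l, a related protein that links complexes III and IV into supercomplexes, had 486, 432, 529 and 602 in BKO ligated and 695, 582, 706 and 664 in WT ligated libraries. In the other limb the values were 724, 876, 793, 964 and 833 in BKO intact and 804, 622, 666, 759 and 782 in WT intact libraries. BKO ligated lay below BKO intact and WT intact throughout, and overlapped WT ligated. It fell by 0.71 on the log2 scale with ligation in BKO-labelled muscle (adjusted p = 1.46e-05), against a change of -0.13 in WT-labelled muscle (adjusted p = 0.338). It was the only complex IV member other than Cox4i2 that did not pass between intact muscle labelled BKO and WT (0.21, adjusted p = 0.164).

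Cox4i1, Cox5a and Cox5b are larger nuclear subunits around the catalytic core. Cox4i1 changed by -0.29 ± 0.09 in BKO-labelled muscle (limma adjusted p = 0.0138, lost without BKO ligated library 4 and with the length correction, at -0.05) and by 0.10 in WT-labelled muscle (adjusted p = 0.399). For Cox4i1 the difference between labels, -0.40 ± 0.13, did not pass (limma adjusted p = 0.0769). Cox5b, a zinc-binding subunit, changed by -0.43 ± 0.10 in BKO-labelled muscle (adjusted p = 0.00186, lost with the length correction, at -0.20 and adjusted p = 0.0603) and by 0.09 in WT-labelled muscle (adjusted p = 0.5). Cox5a changed by 0.05 in BKO-labelled muscle (adjusted p = 0.645, called higher at 0.30 with the length correction) and rose by 0.48 ± 0.09 in WT-labelled muscle (adjusted p = 0.000205). In intact muscle these 3 were higher in muscle labelled BKO by 0.45 ± 0.09, 0.63 ± 0.10 and 0.62 ± 0.08, without overlap of the groups. Cox6b1, which faces the intermembrane space, changed by -0.77 ± 0.11 with ligation in BKO-labelled muscle (adjusted p = 6.94e-06) and by -0.14 in WT-labelled muscle (adjusted p = 0.304). Cox6c was called lower in both, by -0.53 ± 0.08 in BKO-labelled muscle and -0.29 ± 0.08 in WT-labelled muscle (adjusted p = 3.48e-05 and 0.00991). Cox7b was called higher in both, by 0.27 ± 0.10 in BKO-labelled muscle (adjusted p = 0.0309) and 0.59 ± 0.10 in WT-labelled muscle (adjusted p = 9.55e-05). The BKO call was lost without BKO ligated libraries 5 or 6 or BKO intact libraries 1 or 5. Cox4i2, the form of lung known to respond to oxygen, averaged 8.62 ± 3.08 in BKO ligated and 10.5 ± 1.47 in WT ligated libraries (SD, n = 4 each). Intact muscle had 11.4 ± 4.14 in BKO intact and 9.63 ± 4.87 in WT intact libraries (SD, n = 5 each). It had as few as 4 reads in a library, and passed in no comparison.

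Complex V, the ATP synthase, held the largest rises with ligation in WT-labelled muscle, Atp5e and Atp5k. Atp5e, the epsilon subunit of the central stalk (ENSMUSG00000016252, chromosome 2, 174461072 to 174464105 on the minus strand), had 1173, 1084, 1277 and 1324 normalized counts in BKO ligated and 1367, 1182, 1463 and 1375 in WT ligated libraries. Without ligation the values were 737, 765, 741, 723 and 794 in BKO intact and 578, 528, 649, 601 and 683 in WT intact libraries. Every ligated library was above every intact one. It rose 1.61-fold in BKO-labelled muscle (0.69 ± 0.08, limma adjusted p = 1.49e-06) and 2.22-fold in WT-labelled muscle (1.15 ± 0.08, adjusted p = 2.3e-09). The difference was -0.46 ± 0.12 (adjusted p = 0.0252) and was lost without BKO ligated library 4, WT ligated library 2 or WT ligated library 5. Atp5k, the membrane subunit e that takes part in joining synthase dimers, averaged 1173 ± 224 in BKO ligated and 1065 ± 218 in WT ligated libraries (SD, n = 4 each). Their intact counterparts had 778 ± 54.4 in BKO intact and 489 ± 52.4 in WT intact libraries (SD, n = 5 each). Atp5k rose by 0.57 ± 0.13 in BKO-labelled muscle and 1.10 ± 0.13 in WT-labelled muscle (adjusted p = 0.00143 and 1.65e-06).

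Subunit g, encoded by Atp5l (ENSMUSG00000038717, chromosome 9, 44912557 to 44920742 on the minus strand), also sits at the dimer interface, and its promoter, printed above, holds both words. It had 743, 514, 636 and 838 in BKO ligated and 906, 699.7, 949.8 and 908 in WT ligated libraries. On the intact side the values were 591, 716, 667, 720.0 and 716 in BKO intact and 490.4, 405, 459, 458 and 573 in WT intact libraries. WT ligated lay above WT intact without overlap, whereas BKO ligated spread across the BKO intact values. The ligation difference was -0.02 ± 0.13 in BKO-labelled muscle (limma adjusted p = 0.921) and 0.86 ± 0.13 in WT-labelled muscle (adjusted p = 1.76e-05). The difference between labels was -0.88 ± 0.18 (adjusted p = 0.00807), kept whichever 1 library was left out and with the length correction. Atp5j2 and Atp5mpl, further small membrane subunits, also passed for the difference, at -0.58 ± 0.14 and -0.60 ± 0.12 (adjusted p = 0.0187 and 0.00641), and Atp5j2 lost the call with the length correction (adjusted p = 0.0808).

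The ring that turns in the membrane is made of subunit c, whose mature protein is the same from Atp5g1, Atp5g2 and Atp5g3. Atp5g1 (ENSMUSG00000006057, chromosome 11, 96068852 to 96075670 on the minus strand) had 3175, 2289, 2992 and 3243 in BKO ligated and 3101, 2590.1, 3351 and 3073 in WT ligated libraries. The intact libraries had 3787, 4379, 4328, 4474 and 4117 in BKO intact and 2585, 2006, 2149, 2859.8 and 3039.7 in WT intact libraries. BKO intact stood above all other libraries. At 1.69-fold (0.75 ± 0.11, limma adjusted p = 6.07e-05), Atp5g1 had the largest rise of the 45 in BKO-labelled over WT-labelled intact muscle. Ligation changed it by -0.54 ± 0.12 in BKO-labelled muscle (adjusted p = 0.000907) and 0.27 in WT-labelled muscle (adjusted p = 0.0742). The difference between labels was -0.81 ± 0.17 (adjusted p = 0.00863). Atp5g3 averaged 2079 ± 234 in BKO ligated and 2113 ± 237 in WT ligated libraries (SD, n = 4 each). In the other limb the values were 2033 ± 164 in BKO intact and 1334 ± 130.1 in WT intact libraries (SD, n = 5 each). Atp5g3 changed by 0.03 with ligation in BKO-labelled muscle (adjusted p = 0.832) and by 0.66 ± 0.10 in WT-labelled muscle (adjusted p = 1.56e-05). Under the length correction it was called higher in BKO-labelled muscle too (0.27, limma adjusted p = 0.00666). Atp5g2, the least abundant per length of the c genes in WT intact muscle, passed in no comparison, with a difference between labels of -0.70 ± 0.23 (adjusted p = 0.0679).

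In the catalytic head both the alpha and the beta subunit passed for the difference between labels. Atp5b, the beta subunit that holds the catalytic sites, averaged 18155 ± 1419 in BKO ligated and 18401 ± 1196 in WT ligated libraries (SD, n = 4 each). Intact muscle had 20102 ± 728 in BKO intact and 15395 ± 1030.4 in WT intact libraries (SD, n = 5 each). Ligation gave -0.15 ± 0.07 in BKO-labelled muscle (limma adjusted p = 0.0892) and 0.26 ± 0.07 in WT-labelled muscle (adjusted p = 0.0065), and the difference was -0.41 ± 0.10 (adjusted p = 0.0205). Atp5a1, the alpha subunit, gave -0.13 in BKO-labelled muscle and 0.28 ± 0.09 in WT-labelled muscle (adjusted p = 0.205 and 0.0131), the call in WT-labelled muscle being lost without WT ligated library 6. Its difference between labels was -0.41 ± 0.12 (limma adjusted p = 0.0464), a call lost under at least 1 of the 18 libraries left out. With the length correction neither difference passed (limma adjusted p = 0.0733 for Atp5a1 and 0.0556 for Atp5b). Atp5o, the stalk protein that confers oligomycin sensitivity, gave 0.00 in BKO-labelled muscle (adjusted p = 0.988) and 0.51 ± 0.08 in WT-labelled muscle (adjusted p = 2.32e-05). Under the length correction Atp5o was called higher in BKO-labelled muscle (0.23, limma adjusted p = 0.00309). Its difference between labels did not pass there (limma adjusted p = 0.0564). Subunits of the stalks also fell: Atp5h, subunit d of the peripheral stalk, had 1549, 1752, 2135 and 1932 in BKO ligated and 1465, 1528, 1608 and 1575 in WT ligated libraries. Without ligation the values were 2721, 3003, 3194, 3191 and 2790.3 in BKO intact and 2169, 1786, 2021, 2021 and 2285 in WT intact libraries. Ligated and intact libraries of each label did not overlap, and Atp5h fell by 0.70 on the log2 scale in BKO-labelled muscle and decreased by 0.41 in WT-labelled muscle (adjusted p = 2.16e-06 and 0.000872). In BKO-labelled muscle alone the test also called Atp5c1 (-0.63), Atp5d (-0.33) and Atp5f1 (-0.55) lower, the gamma, delta and b subunits, for which the difference between labels did not pass. The call of Atp5d was lost with the length correction (-0.14, adjusted p = 0.113). Atp5j, coupling factor F6 of the peripheral stalk, was called higher with ligation in BKO-labelled muscle (0.37 ± 0.12, adjusted p = 0.0124), a call lost without BKO ligated library 5. Atp5s was called lower in both (-0.65 in BKO-labelled muscle and -0.38 in WT-labelled muscle, the WT call being lost with the length correction and kept only without BKO ligated library 5 or WT intact libraries 2 or 5 of the single libraries).

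**Figure D4:**
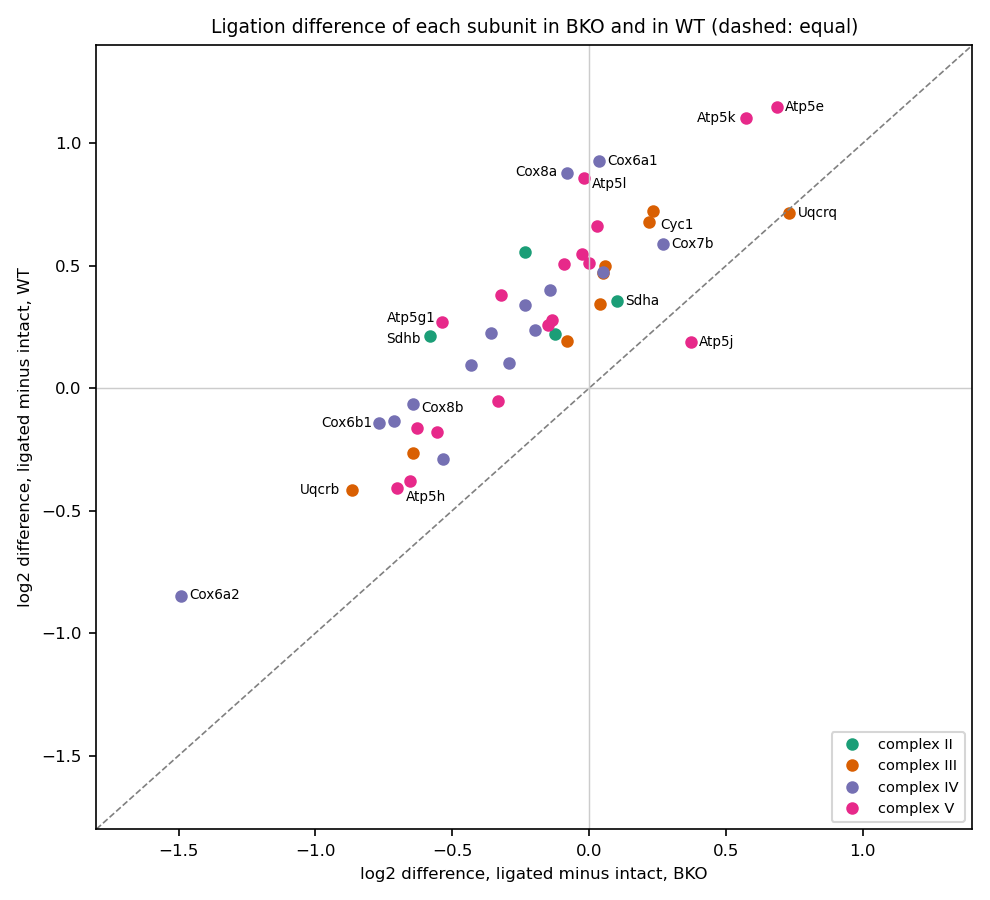
Log2 difference of each member between ligated and intact muscle in BKO-labelled muscle (horizontal axis) and in WT-labelled muscle (vertical axis), coloured by complex, with equality dashed. All members except Uqcrq and Atp5j lie above the dashed line, Cox6a2 lies at the lower left and Atp5e at the upper right.

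Ratios of forms within a library depend little on its scaling, and they were compared for 6 pairs in 4 comparisons, 24 exact two-sided permutation tests in all. None passed after Benjamini-Hochberg adjustment, the lowest adjusted p being 0.0544, and 13 had an unadjusted exact p under 0.05. The smallest p the design allows is 0.0159 for 4 against 5 libraries, 0.00794 for 5 against 5 and 0.0286 for 4 against 4. The log2 ratio of Cox6a2 to Cox6a1 was 4.38, 4.45, 4.33 and 4.60 in BKO ligated and 4.33, 4.01, 4.27 and 4.23 in WT ligated libraries. Their intact counterparts had 6.12, 5.98, 5.70, 6.10 and 5.96 in BKO intact and 6.34, 5.97, 5.77, 5.76 and 6.08 in WT intact libraries. The ligated ratios lay below the intact ones without overlap in either label. The mean differed by -1.53 with ligation in BKO-labelled muscle and by -1.77 in WT-labelled muscle (exact p = 0.0159 each, adjusted p = 0.0544). BKO minus WT was 0.23 in ligated muscle (exact p = 0.0286, adjusted p = 0.0686) and -0.01 in intact muscle (exact p = 0.889). Per kilobase of transcript, Cox6a2 made 94.8% ± 0.389 of the pair in BKO ligated and 94.0% ± 0.575 in WT ligated (SD, n = 4 each). It made 98.1% ± 0.221 in BKO intact and 98.2% ± 0.291 in WT intact muscle (SD, n = 5 each).

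Cox8b over Cox8a gave 3.47 ± 0.05 in BKO ligated and 2.92 ± 0.08 in WT ligated libraries (SD, n = 4 each). On the intact side the values were 4.03 ± 0.14 in BKO intact and 3.87 ± 0.20 in WT intact libraries (SD, n = 5 each). It differed by -0.56 with ligation in BKO-labelled muscle and -0.95 in WT-labelled muscle (exact p = 0.0159 each, adjusted p = 0.0544). It differed by 0.55 between ligated muscle labelled BKO and WT (exact p = 0.0286, adjusted p = 0.0686). Cox7a1 over Cox7a2 was 1.33 ± 0.16 in BKO ligated and 1.01 ± 0.09 in WT ligated libraries (SD, n = 4 each). The intact libraries had 1.24 ± 0.09 in BKO intact and 0.95 ± 0.13 in WT intact libraries (SD, n = 5 each). BKO minus WT was 0.33 in ligated (exact p = 0.0286, adjusted p = 0.0686) and 0.29 in intact muscle (exact p = 0.00794, adjusted p = 0.0544). Ligation gave 0.09 in BKO-labelled muscle and 0.06 in WT-labelled muscle. Among the c genes, Atp5g1 over Atp5g3 was 0.49 ± 0.08 in BKO ligated and 0.52 ± 0.07 in WT ligated libraries (SD, n = 4 each). In the other limb the values were 1.05 ± 0.04 in BKO intact and 0.91 ± 0.13 in WT intact libraries (SD, n = 5 each). The ligation difference was -0.57 in BKO-labelled muscle and -0.39 in WT-labelled muscle (exact p = 0.0159 each, adjusted p = 0.0544). Atp5g2 over Atp5g3 differed by -0.35 with ligation in BKO-labelled muscle and by -0.28 in WT-labelled muscle (exact p = 0.0476 each, adjusted p = 0.0879). For this pair BKO minus WT was -0.26 in intact (exact p = 0.0476, adjusted p = 0.0879) and -0.33 in ligated muscle (exact p = 0.0571, adjusted p = 0.0914). The group means of Cox4i2 over Cox4i1 lay between -8.34 in BKO ligated and -7.98 in WT ligated libraries. Differences of this ratio between groups ran from -0.36 to 0.12 over the 4 comparisons, with no unadjusted exact p under 0.05.

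**Figure D5:**
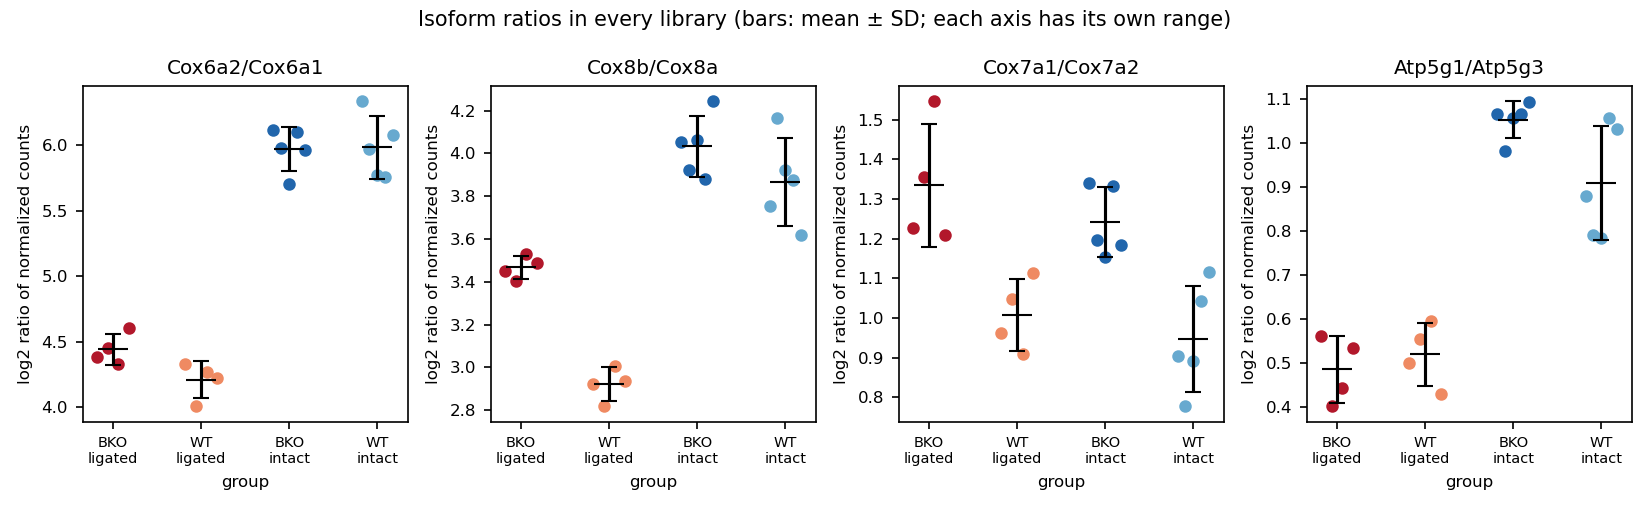
Log2 ratio of normalized counts of 4 pairs of subunit forms in each library (vertical axes, each with its own range), by group, with mean and SD as bars. Cox6a2/Cox6a1 means are 4.44 and 4.21 in BKO and WT ligated libraries, against 5.97 and 5.98 in BKO and WT intact libraries.

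Levels of different genes can be compared only per length. In WT intact muscle the mean normalized count per kilobase ran from 13.2 ± 6.68 (SD, n = 5) for Cox4i2 to 8483 ± 1371 for Cox6a2. Cox6a2 was followed by Atp5b at 8035 ± 538, Atp5a1 at 5324 ± 512 and Cox8b at 4896 ± 390.4, of which Atp5a1 and Cox8b overlap within 1 SD, as do Cox6a2 and Atp5b. At the other end Atp5s had 41.1 ± 8.31, Cox6a1 157 ± 16.5, Cox8a 221 ± 47.3 and Sdhc 328 ± 52.4. Of complex II, Sdha had 1975 ± 129.6 and Sdhb 1725 ± 214 per kilobase, and Sdhd 846 ± 133.

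Other genes of the pathway were counted from lists. Assembly factors of complexes II to V, which build the complexes and are not part of them, were lower after ligation for 21 of 35 in BKO-labelled muscle with 0 higher and for 9 of 35 in WT-labelled muscle with 4 higher. The medians were -0.50 in BKO-labelled and -0.15 in WT-labelled muscle. The background with ligation was 22.1% higher and 25.1% lower in BKO-labelled muscle, and 18.7% and 21.1% in WT-labelled muscle. Between intact muscle labelled BKO and WT 13 were higher and 1, Ttc19, lower (median 0.27), and 3 were lower for the difference between ligation effects. Atpaf1, a factor that helps to assemble the head of the synthase, changed by -0.99 ± 0.10 with ligation in BKO-labelled muscle and -0.70 ± 0.10 in WT-labelled muscle (limma adjusted p = 9.81e-08 and 8.21e-06). Coa7, a factor of complex IV, changed by -1.43 ± 0.21 in BKO-labelled muscle and -0.91 ± 0.21 in WT-labelled muscle (adjusted p = 1.19e-05 and 0.00154). Sdhaf4, which protects Sdha during assembly, rose by 1.15 ± 0.18 in WT-labelled muscle (adjusted p = 2.98e-05), the largest rise of the list, and gave 0.34 ± 0.18 in BKO-labelled muscle, which did not pass. The 36 nuclear subunits of complex I had 32 higher and 0 lower in BKO-labelled over WT-labelled intact muscle (median 0.40). They had 4 higher and 18 lower with ligation in BKO-labelled muscle, 15 higher and 5 lower with ligation in WT-labelled muscle, and 13 lower for the difference. These shares stand beside those of the 45 members as counts, with no test of one list against the other. Over all genes tested, 8.56% were higher and 9.75% lower between intact muscle labelled BKO and WT. For the difference between ligation effects it was 3.04% higher and 2.97% lower.

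The subunits of complexes III, IV and V that mitochondrial DNA encodes fell for 4 of 6 in both labels with ligation. The background of lower calls was 25.1% in BKO-labelled and 21.1% in WT-labelled muscle. mt-Co1, the catalytic subunit of complex IV, averaged 341713 ± 28186 in BKO ligated and 351474 ± 12716 in WT ligated (SD, n = 4 each), against 603573 ± 36399.8 in BKO intact and 638070.0 ± 66109 in WT intact muscle (SD, n = 5 each). This transcript fell in both labels (-0.82 ± 0.10 in BKO-labelled muscle and -0.85 ± 0.10 in WT-labelled muscle, limma adjusted p = 2.46e-06 and 1.77e-06). In BKO mt-Cytb of complex III changed by -0.74 ± 0.13, and mt-Atp6 and mt-Atp8 of complex V by -1.70 ± 0.18 and -1.08 ± 0.12. In WT these changed by -1.24 ± 0.13, -1.74 ± 0.18 and -1.43 ± 0.12, all called lower in both. mt-Co3 rose in BKO-labelled muscle (1.77 ± 0.43) and not in WT-labelled muscle, and mt-Co2, called higher in both, is listed at 0 in all WT intact libraries, where mt-Co1 is abundant, so no fold is given. The difference between ligation effects passed for none of the 6. In intact muscle 1 of the 6, mt-Atp8, was lower in BKO-labelled muscle (-0.33 ± 0.11, adjusted p = 0.0493) and none was higher, and in ligated muscle none passed by limma. Cytochrome c (Cycs) was higher in muscle labelled BKO than in WT in ligated (0.52 ± 0.14, adjusted p = 0.0187) and in intact muscle (0.50 ± 0.12, adjusted p = 0.00577).

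Of 9 regulators of mitochondrial genes, 5 were lower and 1 higher with ligation in BKO-labelled muscle and 5 lower and none higher in WT-labelled muscle, while none passed between intact muscle labelled BKO and WT. The background with ligation was 25.1% lower and 22.1% higher in BKO-labelled muscle, and 21.1% and 18.7% in WT-labelled muscle. Ppargc1a, the coactivator PGC-1alpha, changed by -1.29 ± 0.18 in BKO-labelled muscle and -0.95 ± 0.18 in WT-labelled muscle (limma adjusted p = 7.94e-06 and 0.000273). Gabpa, a subunit of GABP, changed by -0.60 ± 0.14 in BKO-labelled muscle and -0.87 ± 0.14 in WT-labelled muscle (adjusted p = 0.0012 and 4.06e-05). Nrf1 passed in no comparison, at 0.26 ± 0.20 in BKO-labelled muscle and 0.39 ± 0.20 in WT-labelled muscle with ligation. Esrra, a receptor that works with PGC-1alpha, was lower in muscle labelled BKO than in WT ligated muscle (-0.45 ± 0.14, adjusted p = 0.0426).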

How the data were processed

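Whole tibialis anterior RNA of 18 libraries was made into strand-marked libraries (per the labels' protocols). The submitters' processing notes name build mm10 and the tools RSEM 1.3.3, DESeq2, Trimmomatic 0.33 and STAR 2.5.2, without order or role. The deposited normalized counts, a signal per gene not corrected for length, are whole numbers divided by a size factor: 100% of values came out whole (tolerance 0.001). In number 6 of WT intact and number 2 of BKO ligated 1 read is near 1 normalized count, at 1.00352 and 0.99941. No source used here gives the authors' annotation or strand setting. Symbols and coordinates come from GENCODE M21 (GRCm38).

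Comparisons used limma 3.58.1 (R 4.3.3, intensity trend) on log2(normalized count + 1) of the 12262 genes with a mean of at least 10, in 1 fit over 4 groups with 5 comparisons, and Benjamini-Hochberg adjustment over all genes at 0.05. Folds are on that scale and understate changes of low genes. On the recovered counts, edgeR 4.0.16 called 2285 genes between intact muscle labelled BKO and WT, and DESeq2 1.42.0 called 2469. The limma step was tested on simulated counts with known changes between intact muscle labelled BKO and WT. The other comparisons and steps were not tested in this way. No source used here says that libraries of a group come from separate mice or that numbers mark mice, so p-values measure the spread between libraries. Named members were chosen by role, as forms of a subunit, as the largest rise and fall passing in each complex and comparison, and as those passing against most of their complex; Uqcr10, Uqcrh, Cox6b1, Atp5c1, Atp5d, Atp5f1, Atp5j2 and Atp5mpl were added after their values were seen. The members and gene lists were chosen with earlier results of these data known. Processed copies of short subunit genes could take some reads, which was not tested.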

Additional observations from a re-analysis of the deposited data

Results flagged for a closer look

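In 8 of 144 groups of values looked at, 36 named members in 4 groups each, 1 library stood far from the others, where chance gives about 1 in 20. All 8 are library 4 of a group. In WT ligated library 4, normalized counts were 1762 for Atp5g3 (2192 to 2280.2 in the others), 618 for Cox7a2 (772 to 801), 1269 for Sdhd (1600.1 to 1624) and 1319 for Uqcr11 (1529 to 1545). In BKO ligated library 4 they were 1426 for Cox8b (1791 to 1849) and 2058 for Uqcrfs1 (2589 to 2662). In BKO intact library 4 they were higher, at 2027 for Cox7a1 (1658 to 1752) and 782 for Uqcrq (584 to 623).

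For 21 of the named members the ligation effect in muscle labelled BKO differed from that in muscle labelled WT by the test of the difference itself (limma, adjusted over all genes). On the log2 scale, BKO minus WT, it was -0.80 for Sdhb and -0.79 for Sdhd in complex II. In complex III it was -0.46 for Cyc1, -0.42 for Uqcr11, -0.45 for Uqcrb and -0.49 for Uqcrfs1. In complex IV it was -0.42 for Cox5a, -0.53 for Cox5b, -0.89 for Cox6a1, -0.65 for Cox6a2, -0.57 for Cox7a2, -0.58 for Cox7a2l, -0.96 for Cox8a and -0.58 for Cox8b. In complex V it was -0.41 for Atp5a1, -0.41 for Atp5b, -0.46 for Atp5e, -0.81 for Atp5g1, -0.63 for Atp5g3, -0.88 for Atp5l and -0.51 for Atp5o. Leaving out 1 library ended this call for 11 of the 21, namely Cyc1, Uqcr11, Uqcrb, Uqcrfs1, Cox5a, Cox5b, Cox6a2, Cox7a2, Cox7a2l, Atp5a1 and Atp5e, under at least 1 of the 18 libraries left out. The length correction ended it for these 11 and for Cox8b, Atp5b and Atp5o (limma adjusted p = 0.0693, 0.0556 and 0.0564). Without both BKO ligated libraries that held most mt-Rnr2, only Sdhb, Uqcr11, Atp5g1 and Atp5g3 of the 21 kept the call.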

How the results depend on the processing

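Calls of the 36 named members and of the ratios were followed under the alternatives, and no called value changed sign. There 298 values lost a call, 80 gained one and 6036 stayed as they were. The 6036 include values called neither before nor under the alternative, among them all ratios. With ligation in muscle labelled BKO, 7 members were higher; 4 were with median centring, without an intensity trend or with the replicate block, 13 with the length correction (beside 13 lower, against 16, the median turning to 0.01, against -0.14), and 3 to 7 with 1 library left out. Between ligated muscle labelled BKO and WT, 1 was higher and 3 lower; without an intensity trend or with only the groups compared 0 were higher, with the length correction, alone or with the replicate block, 3 were, and without both BKO ligated libraries rich in mt-Rnr2 0 were higher and 0 lower. With 1 library left out, 0 to 1 were higher and 0 to 5 lower. For the difference between ligation effects, 24 were lower; 13 were without an intensity trend, 8 with the length correction, 3 with it and the replicate block, 5 without the mt-Rnr2-rich libraries, and 14 to 31 with 1 library left out. By edgeR 22 and by DESeq2 29 were lower. Over all genes the share called lower fell too, from 2.97% to 1.75% without an intensity trend and 1.94% with the length correction. It was 0.615% with that correction and the replicate block and 0.807% without the mt-Rnr2-rich libraries. The numbers in the labels were not shown to pair the limbs, since same-numbered deviations correlated at -0.06 to 0.05; the replicate block gave 16 lower for this difference and left 40 higher between intact muscle labelled BKO and WT. The causes of these shifts were not tested. No ratio of forms passed under any alternative run, and the blocked exact test of 3 or 4 pairs cannot pass. Depth limits Cox4i2, with as few as 4 reads.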
